A study of Mus musculus with 2 samples.

Results

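The genes described here are 32 genes that carry an electrical signal from nerve to muscle and turn it into a release of calcium, chosen by name, among 43346 Ensembl genes in the gene tables. They encode ryanodine receptors, the voltage sensor complex, triad proteins, calcium store and pump proteins, muscle acetylcholine receptor subunits and the organisers of the endplate. All 32 were found in both libraries' tables. The libraries were 2 total RNA-seq libraries of limb from embryos at day 13.5 (E13.5) of the mouse strain B6NCrl, labelled as biological replicates 1 and 2. Male and female embryos were pooled and labelled healthy, and the labels name no genetic change and no treatment. The labels cite 1 donor entry for both libraries, give 10 ng of RNA longer than 200 nt as the input, and do not say whether forelimb or hindlimb was taken. With 1 group of 2 libraries no condition could be compared, no exact test can reach 0.05, and no p-value is given. Nothing in the labels says whether the RNAs came from separate litters, so the spread between the libraries may be partly technical.

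In skeletal muscle, an action potential is sensed by a calcium channel of the transverse tubule, which is coupled physically to the ryanodine receptor of the sarcoplasmic reticulum. The receptor opens, calcium leaves a store held by calsequestrin, and SERCA pumps return it. At the neuromuscular junction, nerve-derived agrin binds LRP4, which activates the kinase MuSK with the help of DOK7, and rapsyn then clusters acetylcholine receptors. The receptor of fetal muscle holds alpha, beta, delta and gamma subunits, and after birth an epsilon subunit takes the place of gamma.

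The deposited counts summed to 31927117 in replicate 1 and 43194518 in replicate 2, and the 32 genes held 0.118% and 0.120% of the counts of all genes. Levels are given as TPM, which divides counts by transcript length and scales them to the same total in each library, so that genes can be compared within a library. Whole limb was sampled, so fewer muscle cells and less RNA per muscle cell cannot be told apart, nor can muscle be separated from other tissue that uses the same gene. Markers of several tissues were examined. All 19 markers of differentiated skeletal muscle were at 1 TPM or more in both libraries, with summed levels of 2918 and 2983 TPM, from Actc1, a sarcomeric actin, at 689 TPM to Ckm, the muscle creatine kinase, at 2.59 TPM. Among 7 heart markers 1 reached 1 TPM (Tnni3, a troponin, 5.44 and 4.07 TPM), the summed levels were 6.96 and 5.74 TPM, and Nppb and Nkx2-5 were at 0 in both libraries. Of 6 markers of myogenic progenitors 4 passed, with sums of 103.9 and 112.8 TPM. Myod1 was the highest of them at 53.7 TPM in the mean, and Pax3 (0.86 TPM) and Pax7 (0.755 TPM) did not pass. Of 7 markers of smooth muscle 5 passed, with sums of 299 and 303 TPM. Acta2 gave most of these sums, at 231.7 TPM in the mean, and Lmod1 (0.38 TPM) and Myh11 (0.30 TPM) did not pass. Of 13 markers of motor neurons and axons 6 passed, with sums of 48.7 and 48.0 TPM, while Chat, which makes acetylcholine, was at 0 and 0.03 TPM. Of 8 Schwann precursor markers 7 passed, with sums of 72.1 and 78.6 TPM. The part of each of these tissues in the levels below was not tested.

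At a level of 1 TPM or more in both libraries, 28 of the 32 genes were detected. The share among all genes was 34.6%, and among the 21474 protein-coding genes, to which all 32 belong, it was 61.0%. The other 4 were Ryr2, Ryr3, Scn4a and Chrne. At 10 TPM or more in both libraries there were 14 of the 32, beside 40.9% of protein-coding genes. The median level of the 28 detected genes was 9.77 TPM, against 17.2 TPM over all detected genes of the tables. The level of the highest, Fkbp1a, was 293 times that of the lowest detected gene, Jph1. When the 32 were ranked by level, 7 of the 31 steps between neighbours were larger than the spread, defined as 2 times the combined SD between the libraries of 500 genes of like abundance. These steps separated Fkbp1a, Sln, Atp2a1, Asph and Srl from each other in that order, Atp2a2 from Chrnb1, Rapsn from Cacna2d1, and Chrna1 from Musk. Below Musk no neighbours in the order differed beyond that spread. This order rests on the deposited TPM. With counts placed on each gene's longest transcript, Srl, at 18.4 TPM in the mean, lay below Casq2 (30.4 TPM) and Atp2a2 (26.4 TPM). Atp2a1 was then at 42.3 TPM and Asph at 37.1 TPM, and the steps were not tested on those lengths.

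**Figure D1:**
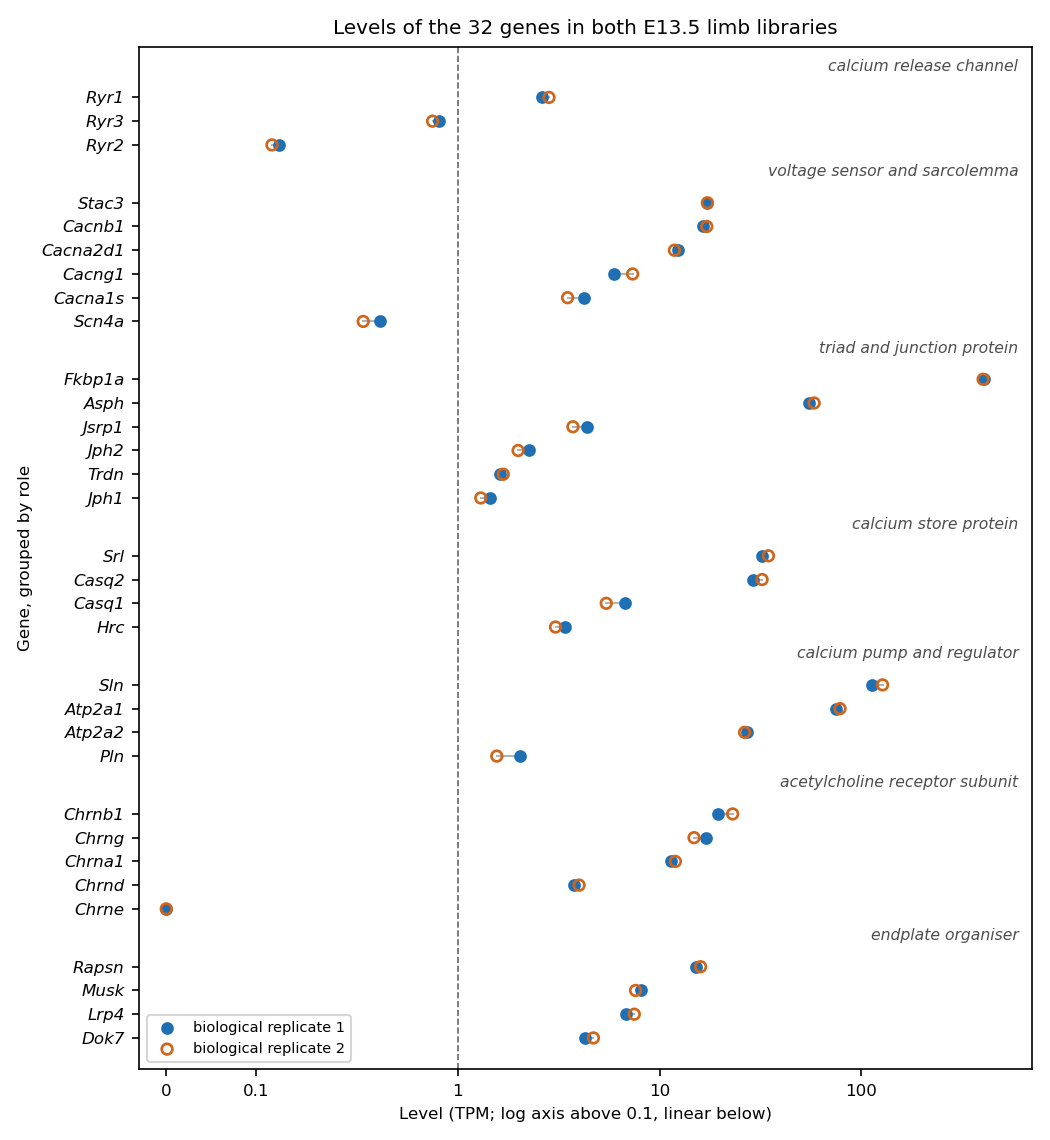
Level of each of the 32 genes in TPM (horizontal, log axis above 0.1 and linear below), grouped by role. Filled points are replicate 1 and open points replicate 2, and the dashed line is 1 TPM. The points of a gene lie close together beside the range between genes, and 4 genes lie left of the line, with Chrne at 0.

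Among the ryanodine receptors, Ryr1, the channel of skeletal muscle, had the highest level. Ryr1 stood at 2.61 TPM in replicate 1 and 2.83 TPM in replicate 2. Ryr3, a channel known for transient use in developing muscle, stood at 0.81 and 0.75 TPM, and Ryr2, the heart channel, at 0.13 and 0.12 TPM. The order was the same in both libraries, but Ryr3 over Ryr2 was within the spread (log2 ratios 1.98 and 1.95, and 0.60 on longest transcripts). Ryr1 made up 75.0% ± 2.1 (SD, n = 2) of the TPM of the 3 channels. Ryr1 was 12.5-fold above Ryr2 (log2 ratio of TPM with 0.1 added, 3.56 and 3.74), past the spread, with 45 and 54 counts behind Ryr2. Ryr1 was 3.20-fold above Ryr3, also past the spread over both libraries, but in replicate 1 alone its log2 ratio of 1.57 was not. The level of Ryr3 rests on its listed short transcripts. With its 75.8 and 89.7 counts placed on the longest transcript, Ryr3 was at 0.225 TPM in the mean and the log2 ratio of Ryr1 over Ryr3 was 3.22. Ryr3 also shares 916 nt of exon with Aven on the other strand, at 5 and 5.53 TPM, and the use of strand in the counting is not given in the sources used here.

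Ryr1 has a pair of full-length transcripts in the tables, encoding 5033 and 5035 residues, that differ by a 15-nt exon and at least 1 other stretch. The 15-nt exon is exon 70 of 106 in the annotated form that holds it (chr7:29056234-29056248, minus strand, mm10). The exon is shown because the deposited estimates of its use disagree. It is printed in capitals between 15 bases of each neighbouring exon.

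Ryr1 exon 70: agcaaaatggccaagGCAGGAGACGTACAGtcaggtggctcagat

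By TPM the form with the exon took 4.50% of Ryr1 in replicate 1 and 41.0% in replicate 2, but by the deposited posterior means it took 54.9% and 47.7%, so no difference between the libraries can be read from it. The deposited intervals for that form ran from 0.17 to 2.44 TPM and from 0.27 to 2.20 TPM, and the TPM of replicate 1, 0.12, lay below its own interval. So the deposited estimates did not resolve the use of this exon, and the reason was not tested. Ryr1 lies below the 10 TPM set for describing transcripts, and it and Cacna1s were added after their values were seen.

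The voltage sensor complex was uneven. Cacna1s, the pore and voltage sensor of the skeletal calcium channel, stood at 4.20 and 3.50 TPM. Its auxiliary subunit Cacnb1 stood at 16.48 and 17.13 TPM, Cacna2d1 at 12.31 and 11.84 TPM, and Cacng1 at 5.93 and 7.35 TPM. Both libraries thus gave Cacna1s the lowest level of the 4 subunits. Cacnb1 was 4.30-fold above Cacna1s, past the spread. Stac3, the adaptor that holds the voltage sensor in the junction, stood at 17.24 and 17.25 TPM. It was 20.1-fold above its relative Stac2, past the spread, while another relative, Stac, stood at 5.45 and 6.69 TPM. Scn4a, the sodium channel of mature muscle, stood at 0.41 and 0.34 TPM, with 37 and 62 counts.

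Cacna1s and Cacnb1 were each below a relative. Cacna1c, the pore of the calcium channel of heart and smooth muscle, stood at 8.01 and 8.11 TPM, 2.07-fold above Cacna1s. Cacnb3, another beta subunit, stood at 32.9 and 36.5 TPM, 2.06-fold above Cacnb1. Both ratios were past the spread. On the longest annotated transcript, Cacna1s was at 2.26 TPM, Cacnb1 at 9.93 TPM and Stac3 at 10.5 TPM in the mean, since part of each gene's TPM comes from short transcripts. The ratio of Ryr1 to Cacna1s was within the spread at 1.40-fold in favour of Cacna1s, and on the longest transcripts it turned to a log2 ratio of 0.26 in favour of Ryr1.

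Cacna1s has an alternative exon of 57 nt, exon 29 of 44, which adds 19 codons (chr1:136104570-136104626, plus strand, mm10). Skipping of this exon in embryonic muscle is known from earlier work on the calcium channel. The exon is shown in capitals between 15 bases of each neighbouring exon because it sets the annotated full-length forms apart.

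Cacna1s exon 29: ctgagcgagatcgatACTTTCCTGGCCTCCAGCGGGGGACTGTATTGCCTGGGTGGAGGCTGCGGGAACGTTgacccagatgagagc

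The form without the exon, which encodes 1831 residues, stood at 1.64 and 1.76 TPM. The pair of full-length forms with it stood together at 0.33 and 0.43 TPM, of which the listed form of 1850 residues gave all. Among these full-length forms the exon was absent from 83.2% and 80.4% by TPM, and from 67.8% and 68.7% by posterior means. The deposited intervals were 0.58 to 1.74 and 0.66 to 2.03 TPM without the exon, and 0 to 1.02 and 0 to 0.99 TPM with it. They overlapped, so these estimates do not separate the forms. A short non-coding transcript of 1001 nt took 45.0% and 37.5% of the gene's TPM on 35.5 and 32.8 counts.

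Among triad and junction proteins, the highest levels belonged to genes also used outside muscle. Fkbp1a, which encodes the small protein FKBP12 that binds the ryanodine receptor and also other partners, stood at 402.7 and 400.7 TPM. It was 37.5-fold above Fkbp1b, its relative, which stood at 11.56 and 9.77 TPM. Asph, whose gene encodes both an aspartyl hydroxylase and the short triad protein junctin, stood at 55.25 and 58.30 TPM. Proteins known mainly from the triad were low. Triadin (Trdn), which ties calsequestrin to the release channel, stood at 1.62 and 1.68 TPM, and Asph was 32.5-fold above it, past the spread. The junctophilins Jph1 and Jph2 hold the membranes of the triad together. Jph2 stood at 2.25 and 1.99 TPM and Jph1 at 1.44 and 1.3 TPM, and the 1.51-fold difference was within the spread. Jsrp1, which encodes the triad protein JP-45, stood at 4.37 and 3.72 TPM.

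The forms of Asph were summed by length class, and no interval was computed for the sums. Its 3 forms of 658 to 741 residues took 43.4% and 45.9% of the gene's TPM. Its 9 forms of 197 to 310 residues took 47.4% and 43.6%, so the class with the higher share differed between the libraries. Most of the short class came from the forms of 294 residues (29.54% and 10.62%) and 310 residues (12.57% and 24.05%). The forms of 207, 212 and 215 residues held at most 3.2% each in either library. Which of the 9 forms encode junctin was not tested. Within each class the shares of single forms differed between the libraries. The form of 741 residues had 31.3% in replicate 1 and 13.8% in replicate 2, and that of 725 residues had 12.1% and 29.8%. Asph shares 2302 nt of exon with Clvs1 on the other strand, which stood at 0.11 and 0.18 TPM. On the longest transcript Asph was at 37.1 TPM in the mean.

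Calcium store proteins were led by Srl and Casq2. Srl, which encodes the reticulum protein sarcalumenin, stood at 32.01 and 34.61 TPM, and at 18.4 TPM in the mean on its longest transcript. That transcript, which encodes 910 residues, itself held 2.4% and 2.19% of the gene's TPM. Casq2, the calsequestrin of heart and slow muscle, stood at 29.11 and 32.20 TPM. Casq1, the calsequestrin of fast muscle, stood at 6.76 and 5.44 TPM. The values of the genes did not overlap, and Casq2 was 4.98-fold above Casq1 (log2 ratios 2.09 and 2.54), past the spread. Casq2 made up 83.4% ± 3.1 (SD, n = 2) of the calsequestrin TPM. Hrc, a histidine-rich protein that binds calcium in the store, stood at 3.39 and 3.05 TPM. Of the 7 heart markers, 6 were under 1 TPM in both libraries, and their part in the level of Casq2 was not tested.

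On the transcript lengths of the tables, sarcolipin and the SERCA1 pump had the second and the third highest levels of the 32 genes. Atp2a1, the SERCA1 pump of fast muscle, stood at 75.07 and 78.30 TPM, and Atp2a2, the SERCA2 pump of slow muscle, heart and many other cells, at 27.01 and 26.37 TPM. Atp2a1 was 2.87-fold above Atp2a2, past the spread. On longest transcripts Atp2a1 was at 42.3 TPM in the mean and the log2 ratio of Atp2a2 over Atp2a1 was -0.68 in place of -1.52, still past the spread. Atp2a3, another pump gene, stood at 0.80 and 1.04 TPM. Atp2a1 shares 763 nt of exon with Rabep2 on the other strand, at 30.70 and 30.77 TPM, and the part of those reads was not tested.

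The small regulators of the pump were far apart. Sarcolipin and phospholamban are short membrane proteins that bind SERCA and lower its activity. Sln stood at 112.84 and 127.27 TPM, and Pln at 2.04 and 1.56 TPM. Sln was 63.6-fold above Pln (log2 ratios 5.72 and 6.26), past the spread. The deposited tables use a Sln transcript of 515 nt, where the later annotation release lists 1318 nt, so the level and rank depend on which length is taken. The same counts over 1318 nt would give 38.5 and 43.4 TPM, below Atp2a1 and Asph, and 21.8-fold above Pln, still past the spread. Reads on the added bases are not part of those counts. The open reading frames of both are shown to make their size plain, 31 and 52 codons before the stop, with the start and stop codons in capitals.

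Sln open reading frame: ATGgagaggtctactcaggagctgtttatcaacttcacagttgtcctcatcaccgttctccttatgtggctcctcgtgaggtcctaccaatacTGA

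Pln open reading frame: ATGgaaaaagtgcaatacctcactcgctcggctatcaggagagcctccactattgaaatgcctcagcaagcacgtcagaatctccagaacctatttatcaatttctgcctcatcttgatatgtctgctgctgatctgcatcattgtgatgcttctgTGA

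The transcripts of Atp2a1 split at the 3′ end. Exon 22 of 23, of 42 nt (chr7:126446545-126446586, minus strand, mm10), holds the stop codon of SERCA1a, the adult form. Where it is skipped, translation runs into the last exon, which gives SERCA1b, the form known from fetal and newborn muscle. The exon is printed in capitals between 15 bases of each neighbouring exon because it sets the 2 forms apart.

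Atp2a1 exon 22: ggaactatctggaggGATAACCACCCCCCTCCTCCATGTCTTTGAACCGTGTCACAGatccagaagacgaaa

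The full-length transcript with the exon, which encodes 994 residues, stood at 32.95 and 37.24 TPM, on 2319 and 3481 counts. The transcript without it is annotated only as a fragment of 681 nt with no 5′ end, and stood at 42.12 and 41.06 TPM, on 511 and 661 counts. By TPM the form without the exon held 56.1% and 52.4% of the gene. By counts it held 18.1% and 16.0%, since the listed fragment is short. Reads upstream of the fragment can count only for the full-length entry, so the shares describe these entries and not whole mRNAs. For Atp2a2 the form of 1044 residues, SERCA2b, which most cells use, held 71.3% and 71.7% of TPM, and that of 998 residues, SERCA2a of heart and slow muscle, held 28.7% and 28.3%. The intervals of these forms, 17.7 to 19.7 against 6.79 to 8.37 TPM in replicate 1, did not overlap.

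**Figure D2:**
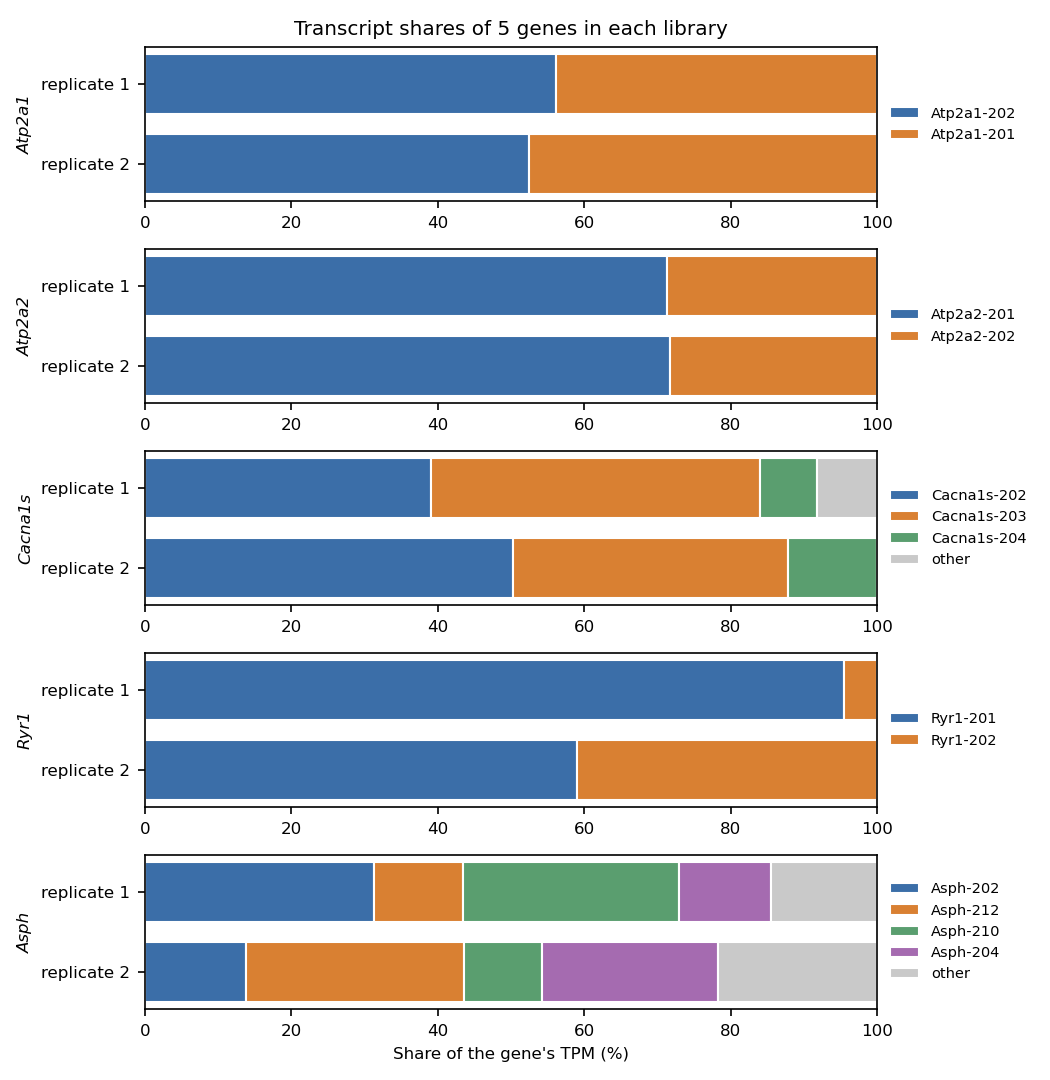
Share of each gene's TPM (horizontal, in percent) taken by its annotated transcripts in replicate 1 (upper bar) and replicate 2 (lower bar), for Atp2a1, Atp2a2, Cacna1s, Ryr1 and Asph. The shares of Atp2a1 and Atp2a2 lie within 4 percentage points of each other between libraries, while those of Cacna1s, Ryr1 and Asph do not.

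RNA was detected for the 4 subunits of the fetal acetylcholine receptor and not for the adult epsilon subunit. Chrna1, the alpha subunit that binds acetylcholine, stood at 11.41 and 11.97 TPM, Chrnb1 (beta) at 19.49 and 23.01 TPM, Chrnd (delta) at 3.77 and 3.99 TPM, and Chrng (gamma) at 16.89 and 14.81 TPM. Chrne (epsilon) had 0 counts in both libraries. A count of 0 allows up to 3 counts, equal to 0.145 and 0.109 TPM, so against that floor Chrng was at least 116-fold higher than Chrne in replicate 1 and at least 136-fold in replicate 2. The limits cover counting error only. The deposited intervals for Chrne reached higher, to 0.552 and 0.419 TPM, and Chrng was 30.6 and 35.3 times these upper bounds. The receptor of muscle uses a pair of alpha subunits and 1 each of the others, but the RNA levels did not follow that. Chrnb1 was 1.81-fold above Chrna1, Chrna1 was 2.96-fold above Chrnd, and Chrng was 4.00-fold above Chrnd, all past the spread. Chrnd and Chrng are neighbours on the plus strand of chromosome 1 (chr1:87190607-87200070 and chr1:87204657-87212694, mm10). Chrng was 1.35-fold above Chrna1, past the spread over both libraries, but not in replicate 2 alone (log2 ratio of Chrna1 over Chrng -0.30) and not on longest transcripts (-0.08).

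Promoters of Chrna1, Chrng and Chrne are shown because the receptor genes stood so far apart, from 0 to more than 10 TPM, and that of Musk for the endplate kinase. Each is the 250 bases before the transcription start in RefSeq (GRCm38.p6), 5′ to 3′ in the gene's direction. Whether the RNAs counted here begin at these starts was not tested. The Chrng window lies inside the annotated gene, which begins at base 87204657. Exons of the same gene reach into the windows of Chrne (22 nt), Musk (2 nt) and Chrng (1 nt). Capitals mark 3 motifs, searched on both strands. CAGCTG and CACCTG (read as CAGGTG on the other strand) are forms of the E-box, known as the binding motif of MyoD family factors, and CCGGAA is the N-box, known from synaptic genes and bound by ETS factors.

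Chrna1 promoter, chr2:73580339-73580588 (minus strand): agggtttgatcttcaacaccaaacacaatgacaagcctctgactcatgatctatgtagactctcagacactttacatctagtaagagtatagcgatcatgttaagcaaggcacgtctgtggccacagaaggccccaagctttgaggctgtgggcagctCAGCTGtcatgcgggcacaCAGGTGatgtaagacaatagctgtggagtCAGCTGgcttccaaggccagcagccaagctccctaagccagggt

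Chrng promoter, chr1:87205561-87205810 (plus strand): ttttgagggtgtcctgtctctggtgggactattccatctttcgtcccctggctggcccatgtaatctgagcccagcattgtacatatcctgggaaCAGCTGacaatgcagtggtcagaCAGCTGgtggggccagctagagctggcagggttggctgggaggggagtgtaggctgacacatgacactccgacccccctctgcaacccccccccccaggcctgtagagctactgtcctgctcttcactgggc

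Chrne promoter, chr11:70619195-70619444 (minus strand): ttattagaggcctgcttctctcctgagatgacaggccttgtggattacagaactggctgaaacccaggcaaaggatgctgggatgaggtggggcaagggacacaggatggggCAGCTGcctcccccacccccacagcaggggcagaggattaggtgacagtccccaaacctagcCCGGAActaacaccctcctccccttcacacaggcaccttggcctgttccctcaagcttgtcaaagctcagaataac

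Musk promoter, chr4:58285712-58285961 (plus strand): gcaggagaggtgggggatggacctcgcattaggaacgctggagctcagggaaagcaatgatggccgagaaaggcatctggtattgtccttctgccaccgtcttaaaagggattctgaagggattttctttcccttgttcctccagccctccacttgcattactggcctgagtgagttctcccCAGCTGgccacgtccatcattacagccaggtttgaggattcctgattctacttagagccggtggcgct

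The Chrna1 window held CAGCTG at 2 places, 92 and 44 bases before the start, with a CACCTG form between them. The Chrng window held CAGCTG at 2 places, and the Chrne window held CAGCTG and the N-box 1 time each. CAGCTG matches stood in the window of Chrne, with 0 counts, and in those of Chrna1 and Chrng, at over 10 TPM. The part of the matches in these levels was not tested. The window of Chrnb1, the receptor subunit with the highest level, held no CAGCTG and a CACCTG form. RefSeq promoter windows were matched for 19 of the 32 genes, with 22 windows. CAGCTG was found in 11 of the 22 windows (10 of 19 genes), against 13.0% of 32841 windows of all genes. CACCTG was found in 4 of the 22, against 17.2%, and the N-box in 1 of the 22, against 12.0%. Both Jph2 windows overlap and share 1 match. Annotated exons reach into other windows too, by up to 186 nt (Scn4a), and the Chrnb1 window shares 120 nt with Fgf11. These are matches of letters, and no binding was measured.

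**Figure D3:**
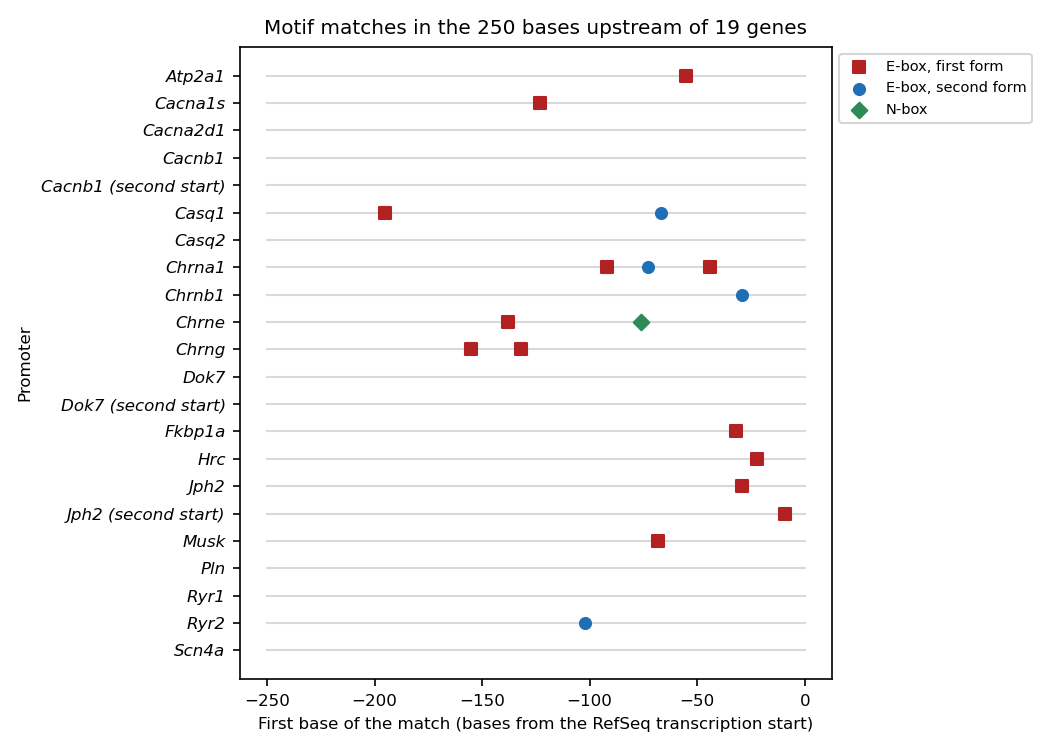
Position of motif matches (horizontal, first base of the match in bases from the RefSeq transcription start) in the 22 promoter windows of 19 genes. Squares are CAGCTG, circles CACCTG and the diamond CCGGAA, and 11 of the windows hold a square.

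Organisers of the endplate were all detected. Musk, the receptor kinase that starts clustering, stood at 8.10 and 7.6 TPM, and Lrp4, the receptor for agrin that is also used by limb ectoderm and bone, at 6.80 and 7.49 TPM. These neighbours were within the spread at 1.10-fold, and on longest transcripts the log2 ratio of Musk over Lrp4 was -0.016. Dok7, the cytoplasmic activator of MuSK, stood at 4.26 and 4.70 TPM, and Musk was 1.74-fold above it, past the spread. Rapsn, the scaffold under the receptors, stood at 15.21 and 15.96 TPM, and was 1.33-fold above Chrna1 with log2 ratios of 0.41 in both libraries, past the spread. Among the 24 pairs compared, 19 ratios exceeded the spread. The first gene was the higher one in 10 of these and the second in 9.

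**Figure D4:**
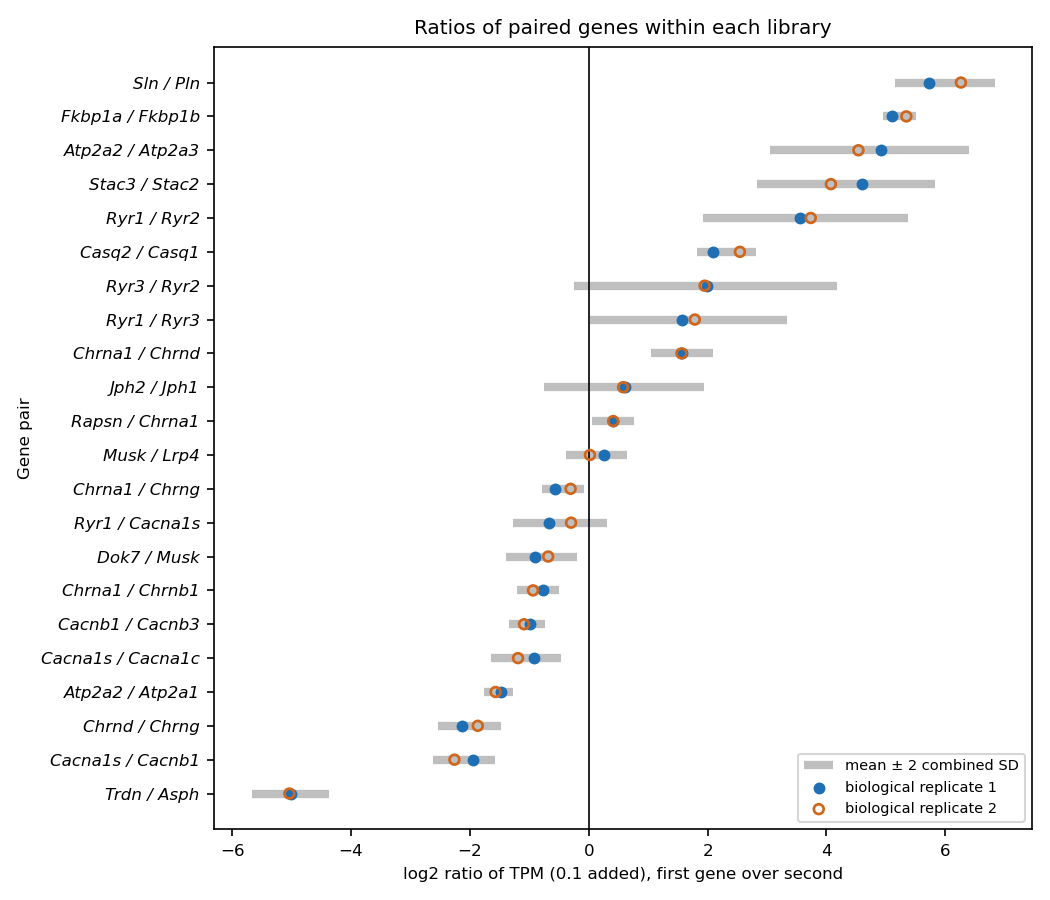
Log2 ratio of TPM with 0.1 added (horizontal), first gene over second, for 22 of the 24 pairs, without Chrng over Chrne. Filled points are replicate 1, open points replicate 2, and grey bars the mean ± 2 combined SD of genes of like abundance. The bars of 4 pairs reach 0, and the ratios farthest from 0 are those of Sln over Pln, Fkbp1a over Fkbp1b and Trdn over Asph.

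The wider pathways were represented as follows. Of 50 other genes of excitation-contraction coupling and calcium handling, 48 were matched and 36 were at 1 TPM or more in both libraries, with a median of 5.71 TPM. Calr, which encodes calreticulin and serves most cells, was among the highest at 813 TPM in the mean. Kcnj11 and Pvalb were among the lowest, both under 0.1 TPM in the mean. Pvalb, the calcium buffer of adult fast fibres, had 0 and 3 counts. Of 41 other neuromuscular junction genes 35 reached that level, and the median over the 41 was 13.9 TPM. Agrn, which encodes agrin, stood at 57.64 and 61.49 TPM over all its transcripts, and the tissue and splice form behind this level were not tested. The highest of the 41 was Ctnnb1, beta-catenin, at 459 TPM. The neuronal receptor subunit genes Chrna3, Chrnb4 and Chrnb2 were the lowest, at 0.02, 0.125 and 0.175 TPM. Other neuronal subunit genes of that list were higher. Chrna7 stood at 2.87 and 2.49 TPM, Chrna4 at 1.42 and 1.97 TPM, and Chrna5 at 0.62 and 0.86 TPM. All 5 glycosylation genes linked to endplate disease were detected, from Gfpt1 at 19.5 TPM to Alg2 at 75.5 TPM.

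Between the libraries these genes differed little. Of the 26 with a mean of at least 100 counts, none was over 1.5-fold apart after TMM scaling, a scaling that removes differences in depth and composition, where 0.667% of 13185 genes were. Replicate 2 was higher for 15 of the 26, where 51.9% of all genes were. The median log2 ratio of replicate 2 over replicate 1 was 0.01, beside 0.01 over all genes, and the median size of the log2 ratio was 0.11, beside 0.08 over all genes. Of the same 26 genes, 8 lay beyond 2 counting standard errors, where 31.1% of the 13185 genes did, so the share was near that of all genes. They were Atp2a1, Cacna2d1, Chrnb1, Sln, Casq1, Casq2, Asph and Lrp4. Of these, Atp2a1 (log2 0.12), Sln (0.15), Chrnb1 (0.21), Casq2 (0.10), Lrp4 (0.12) and Asph (0.06) were higher in replicate 2, and Casq1 (-0.30) and Cacna2d1 (-0.14) in replicate 1. The calsequestrin genes were thus higher in different libraries, but only just beyond the limit, at 2.16 (Casq2) and -2.13 (Casq1) counting standard errors. The subunits Chrnb1 and Chrng also differed in direction, but Chrng (log2 -0.11) lay within 2 counting standard errors, at -1.57.

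**Figure D5:**
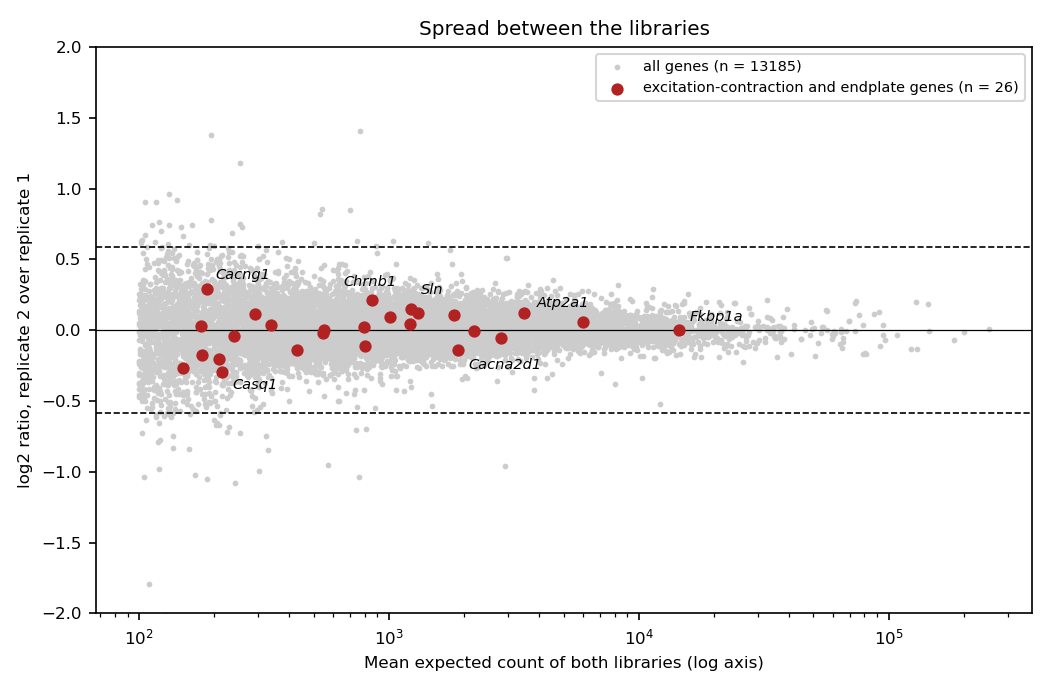
Log2 ratio of TMM-scaled counts with 0.5 added, replicate 2 over replicate 1 (vertical), against the mean count (horizontal, log axis), for 13185 genes in grey and 26 of the 32 genes in red. Dashed lines mark 1.5-fold, which no red point crosses, and 10 grey genes lie outside the axis.

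At 10 TPM or more, 14 genes were examined for their leading transcript, the one with the highest mean share of the gene's TPM. In 11 of the 14 one transcript held 50% or more in both libraries, and in 13 the same transcript led in both. In 13 the leader was a complete coding transcript, and the exception was the Atp2a1 fragment. Chrna1 and Sln had 1 listed transcript each. Fkbp1a, at 89.5% and 91.8%, and Rapsn, at 90.0% and 87.9%, were dominated by the form that encodes 108 and 412 residues. Casq2 had 100% and 91.7% on its form of 415 residues. Chrng had 69.8% and 75.0% on the form of 519 residues, and Chrnb1 had 72.8% and 72.2% on that of 501 residues, with the rest on short or intron-holding entries. Srl had 72.7% and 67.5% on the form of 472 residues, and Cacna2d1 69.9% and 75.3% on that of 1084 residues. Stac3, with 52.6% and 49.5%, and Cacnb1, with 50.9% and 49.6%, had less than 50% in 1 library.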

How the data were processed

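Total RNA-seq libraries of E13.5 limb (1 group, 2 libraries) were analysed. The 32 genes, the lists and the pairs were chosen with earlier results of these data known. Labels name the assembly mm10, and text files beside the tables name GENCODE M4 as annotation. What program aligned or counted the reads, and whether it used strand, is not given in the sources used here. The tables the authors deposited, by gene and by transcript, hold expected counts, TPM, FPKM, percent of the gene's TPM per transcript and interval bounds, per the file headers. The expected counts are estimates that divide reads among transcripts. Rows that are no gene took 0.000187% of the counts and, like spike-ins (2.11% and 2.07%), stayed out of library sizes.

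Expected counts were rounded for TMM scaling in edgeR 4.0.16 (R 4.3.3) on 17441 genes that had at least 10 counts per library. DESeq2 1.42.0 gave other size factors. Ratios between libraries added 0.5 to scaled counts, and pair ratios added 0.1 to TPM. A pair ratio counted as past the spread if its sign agreed in the 2 libraries and its mean log2 value exceeded 2 combined SDs of 500 genes of like abundance. The steps were tested on simulated data. All 32 genes are named, and from context lists at most the 6 highest and 3 lowest, plus genes of pairs. Among these, 1 pair and 2 genes of a context list are not reported here. Transcript names, exons and protein lengths came from GENCODE M21, a later release on the same assembly, and promoters from RefSeq (GRCm38.p6). Python 3.11.15, numpy 2.4.6 and pandas 2.3.3 were used.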

Additional observations from a re-analysis of the deposited data

How the results depend on the processing

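The number of genes detected was 18 at a threshold of 5 TPM, against 28 at 1 TPM, and was 27 to 29 under the other settings, including 28 without either replicate. The counts of pairs past the spread were 18 to 22 of 24, and 18 without either replicate. With expected counts in place of TPM, which favours long genes by construction, the log2 ratios of Chrna1 over Chrnb1 (0.52), Chrna1 over Chrng (0.59), Ryr1 over Cacna1s (1.58), Rapsn over Chrna1 (-1.14) and Musk over Lrp4 (-1.25) turned. On the longest transcript's length, an alternative chosen after seeing the data, Ryr1 over Cacna1s (0.26) and Musk over Lrp4 (-0.016) turned, and Chrna1 over Chrng (-0.08) fell within the spread. The M21 length of Sln, also chosen after seeing the data, gave a log2 ratio of 4.44 over Pln. By expected counts the Atp2a1 fragment held 17.0% in the mean and no longer led. The leading Asph form held 13.8% to 31.3% with each replicate left out in turn and did not lead without replicate 1. None of the 26 genes was over 1.5-fold apart under any of the scalings or filters tried, up to all 32 genes with no filter. No paired analysis was possible because the labels give 1 group. Counts under 100 in the mean limited Ryr2, Ryr3, Scn4a, Chrne, Jsrp1 and Pln, and transcript shares of genes under 10 TPM.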
